A study of Arabidopsis thaliana with 12 samples.

Results

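Of the 32833 gene entries in the combined count table of Arabidopsis thaliana seed libraries, 52 were near silent in the wild type and clearly transcribed in the double mutant Atsdr4l-5 dig2. They were chosen by their level: a mean under 1 CPM (a gene's share of all reads on genes in a library, scaled to 1000000 reads) in both wild-type tissues and a mean of at least 4 CPM in at least 1 mutant tissue. All 52 are protein-coding, and 19 carry a symbol of their own in the annotation. The rule thus used the difference between mutant and wild type in both tissues, so that difference is described for these genes below and not tested.

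RNA came from mature seeds of the wild-type accession Col-0 and of the double mutant, both grown in long days of 16 h light and 8 h dark. Seeds were harvested about 18 days after pollination, held for 2 days at room temperature and imbibed for 1 to 2 h, after which embryos were dissected from the rest of the seed. Each genotype gave embryo and seed coat samples, with 3 biological replicates in each of the 4 groups, and the seed coat samples also hold the endosperm. The 12 libraries had 10301817 to 17619031 reads on genes. The mutant carries 2 mutations, Atsdr4l-5 and dig2, in all its libraries, and neither can be separated from the other in these groups. The sources used here do not give the kind of lesion in either allele. Bulk RNA was measured, so fewer cells of a type and less RNA per cell cannot be told apart.

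SDR4-like and DIG proteins belong to a small plant family of transcriptional repressors that are themselves induced by abscisic acid (ABA), the hormone that drives seed maturation, desiccation tolerance and dormancy. Maturation genes are typically switched on through ABA-responsive promoter elements with an ACGT core and through RY repeats bound by B3-domain regulators, and are turned down again as the seed goes over to germination. Genes that a mature wild-type seed does not transcribe can include seedling and stress genes held silent until after germination.

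The labels and tissues were checked first. DIG2 (AT5G50360) had 106 to 246 CPM in Col-0 embryos, 125 to 146 CPM in mutant embryos, 103 to 184 CPM in Col-0 seed coats and 87.0 to 125 CPM in mutant seed coats, so its reads did not separate the genotypes and gave no check of the labels. EPR1, an endosperm gene, averaged 240 CPM in Col-0 embryos and 183 CPM in mutant embryos against 146059 and 149440 CPM in the Col-0 and mutant seed coat. BAN, a tannin enzyme of the seed coat, was at 0 in Col-0 embryos and at 0.0197 CPM in mutant embryos but at 8.64 and 10.3 CPM in the seed coat. The summed level of 11 seed coat markers was 13.1 to 14.7 CPM in Col-0 embryos and 7.38 to 12.1 CPM in mutant embryos, and 18.7 to 21.4 CPM and 21.0 to 22.4 CPM in the seed coat. The summed level of 8 endosperm markers, most of it EPR1, was 231 to 258 CPM in Col-0 embryos and 148 to 251 CPM in mutant embryos. The 10 embryo markers did not part the tissues as a sum, since ATML1 was higher in the seed coat. WOX2 was at 21.9 CPM in Col-0 embryos and 28.0 CPM in Col-0 seed coats. PLT1 was at 1.79 and 0.918 CPM in the embryo against 0.0324 and 0.0243 CPM in the seed coat. The seed coat markers GL2, MUM4 and MUM2 were higher in Col-0 embryos (2.89, 8.81 and 0.909 CPM) than in Col-0 seed coats (0.588, 7.08 and 0.0231 CPM). The other seed coat markers were lower in Col-0 embryos. The endosperm marker AGL62 was at 2.23 CPM in Col-0 embryos and 1.57 CPM in Col-0 seed coats. In the mutant the endosperm marker NCED6 was higher in embryos (21.4 CPM) than in seed coats (9.78 CPM). So were the seed coat markers MUM4 (6.74 against 6.31 CPM) and MUM2 (0.314 against 0.0487 CPM). Markers of pollen (5 genes) and guard cells (4 genes) summed to at most 0.971 and 2.12 CPM in any library.

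As a sum, the 52 genes took 17.3, 18.3 and 20.2 CPM in the Col-0 embryo libraries and 311, 331 and 313 CPM in the mutant embryo libraries. The seed coat sums were 19.0, 17.4 and 18.2 CPM in Col-0 and 371, 452 and 357 CPM in the mutant. The median gene of the set had a mean of 0.300 CPM in Col-0 embryos, 4.92 CPM in mutant embryos, 0.319 CPM in Col-0 seed coats and 5.32 CPM in mutant seed coats. They were nevertheless genes of low to moderate level in the mutant: 13 of them reached 10 CPM in a mutant group, and the highest group mean was 33.1 CPM, for MYB34 in the mutant seed coat.

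Both limits lay within a continuum. In all, 17413 genes were under 1 CPM in both Col-0 tissues, and of these 462 reached 1 CPM, 183 reached 2 CPM and 52 reached 4 CPM in a mutant group. The genes just inside the lower limit were AT5G38195 at 4.08, AT1G12010 at 4.11 and AT3G10260 at 4.20 CPM, and those just outside it were AT5G12890 at 3.97, AT2G36650 at 3.94 and AT4G39150 at 3.94 CPM. At the upper limit, AT2G42350 at 0.962, AT3G24210 at 0.947 and AT3G43110 at 0.904 CPM were inside, whereas PP2-B11 at 1.01, AT2G46290 at 1.06 and the photosystem gene PSBY at 1.06 CPM were outside. The mirror rule, off in the mutant and at least 4 CPM in a Col-0 group, held for 83 genes.

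Being off in Col-0 rarely meant no reads at all. AT1G69480 alone had 0 reads in all 6 Col-0 libraries, while 7 genes had 0 reads over the Col-0 embryo libraries and 2 had 0 over the Col-0 seed coat libraries. At least 1 Col-0 library reached 1 CPM for 10 of the 52, the most being 1.50 CPM for AT3G15250 in Col-0 embryo replicate 3. The 3 mutant libraries lay above all 3 Col-0 libraries for 48 of 52 genes in the embryo, beside 16.6% of all 16238 tested genes, and for 52 of 52 in the seed coat, beside 17.2%. Those counts follow from the rule and nothing is read from them. All 52 passed the filter on low counts, which they did through the mutant libraries.

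**Figure D1:**
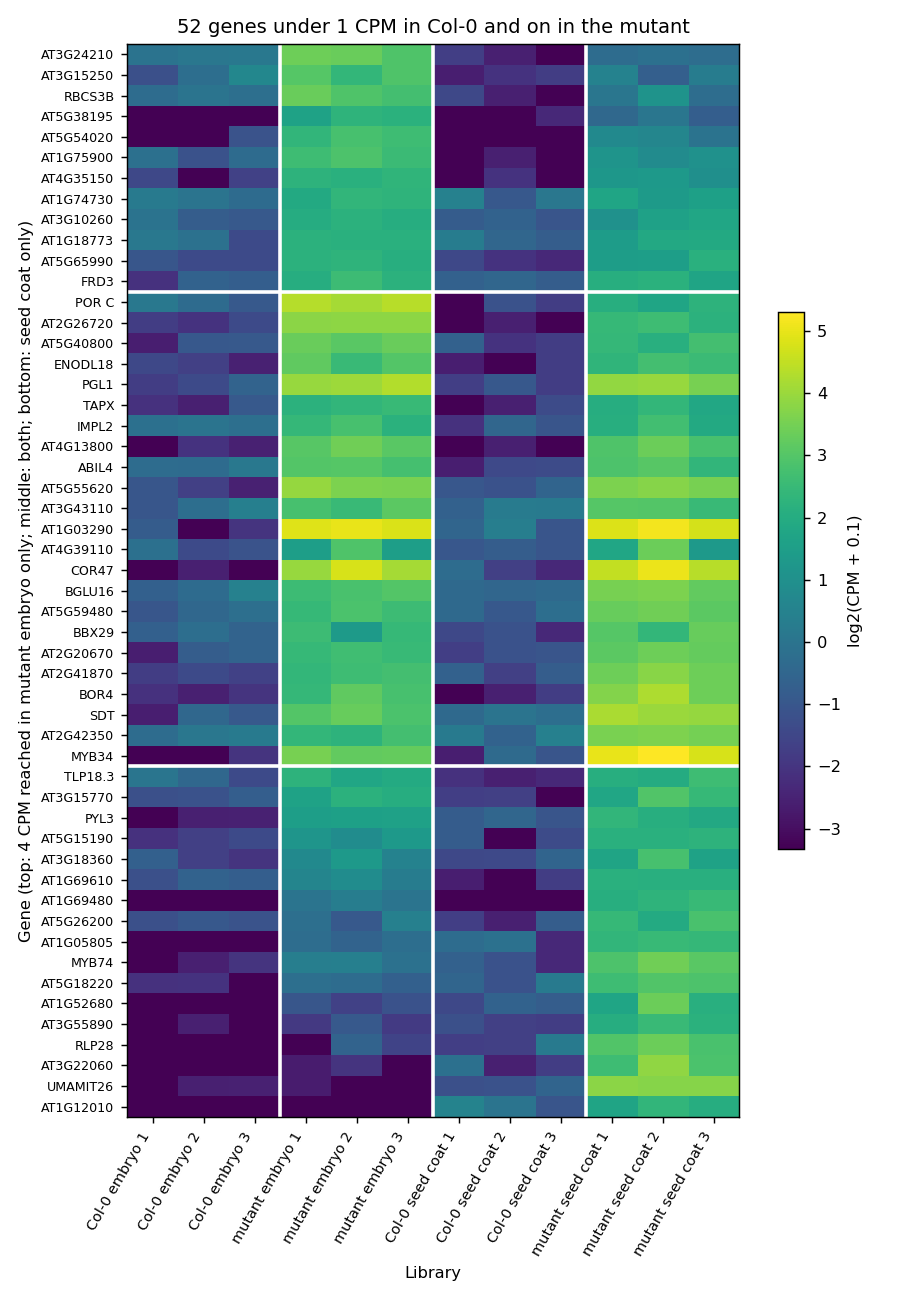
Level of each of the 52 genes (rows) in each of the 12 libraries (columns), as log2(CPM + 0.1), ordered by the mutant tissue in which 4 CPM was reached and, within it, by the seed coat against embryo difference in the mutant. The top 12 genes reached it in the embryo only, the middle 23 in both tissues and the bottom 17 in the seed coat only, and all Col-0 columns stay at or under 1.50 CPM.

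The choice was repeated on 2 of the 3 replicate numbers, and the replicate left out was then read. Chosen without replicate 1, 41 genes passed through the embryo and all 41 were higher in the left-out mutant embryo than in the left-out Col-0 embryo, with medians of 5.39 and 0.399 CPM. Of the 44 that passed through the seed coat, 43 were higher in the mutant library left out. Without replicate 2 the counts were 36 of 36 in either tissue, and without replicate 3 they were 48 of 48 in the embryo and 47 of 47 in the seed coat. The replicate left out belongs to the same groups, and the share of all genes higher in it is not given. Neither these counts nor those that follow thus have a background, and nothing is read from them. The limit of 4 CPM was met less often. Without replicates 1, 2 and 3 in turn, 33 of 41, 31 of 36 and 42 of 48 genes met it in the mutant embryo library left out, and 34 of 44, 33 of 36 and 37 of 47 met it in the mutant seed coat library. The Col-0 library left out was under 1 CPM for 35 of 41, 36 of 36 and 35 of 48 genes in embryos, with a highest value of 3.39 CPM, and for 40 of 44, 31 of 36 and 41 of 47 in seed coats, with a highest value of 2.50 CPM.

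The mutant seed lots were not alike in these genes. In the seed coat 33 of the 52 had their highest mutant value in replicate 2, 9 in replicate 1 and 10 in replicate 3, and in the mutant embryo 26 of 51 genes with reads were highest in replicate 2. Over all tested genes with reads, replicate 2 was likewise the highest in 53.2% in the mutant seed coat and in 54.5% in the mutant embryo, so this was not particular to the 52 genes. In Col-0, replicate 1 was the highest for 50.7% of tested genes with reads in embryos and 49.8% in seed coats. Mutant embryo 2 correlated with the other mutant embryo libraries at 0.973 and 0.979, against 0.991 between replicates 1 and 3.

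By the words of their RefSeq descriptions, the largest named group was transporters and channels, with 8 of the 52 genes (15.4%) against 3.10% of the tested coding genes. Photosynthesis and chlorophyll genes numbered 4 (7.69% against 0.476%), transcription factors 4 (7.69% against 3.11%) and kinases and receptors 4 (7.69% against 6.11%). Lipid proteins numbered 3, and LEA or cold-regulated proteins, small-molecule transferases and glycosyl hydrolases 2 each. A RING protein and an oxygenase stood alone in their groups, 15 had other described functions and 6 were uncharacterised. Storage and oil body proteins, heat shock proteins and chaperones, defence proteins and peptides, and hormone metabolism had 0 genes each. These shares describe the set and were not tested.

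Promoters are shown for genes that the results below turn on, because ABA and B3 regulators are known to act through motifs there. Each line gives 250 bases up to the base before the annotated gene start, read 5′ to 3′ on the gene's strand from RefSeq (TAIR10.1). Capitals mark 4 motifs. The ABRE core is ACGTG, which reads CACGT when it lies on the other strand. The G-box is the palindrome CACGTG and holds the ABRE core. The RY repeat is CATGCA and reads TGCATG on the other strand. The CRT/DRE core is CCGAC and reads GTCGG on the other strand. The first 4 hold ACGTG: AT1G69480, which had no read in Col-0, and 3 genes that passed in both mutant tissues. AT1G69480 was picked for display after its values were seen.
AT1G69480 (chr1:26117956-26118205, minus strand): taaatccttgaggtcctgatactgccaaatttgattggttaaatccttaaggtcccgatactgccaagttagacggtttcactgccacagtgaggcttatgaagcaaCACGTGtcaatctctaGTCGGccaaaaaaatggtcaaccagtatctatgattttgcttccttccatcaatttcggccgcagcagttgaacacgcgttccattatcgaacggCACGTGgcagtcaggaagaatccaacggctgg
AT2G41870 (chr2:17472985-17473234, minus strand): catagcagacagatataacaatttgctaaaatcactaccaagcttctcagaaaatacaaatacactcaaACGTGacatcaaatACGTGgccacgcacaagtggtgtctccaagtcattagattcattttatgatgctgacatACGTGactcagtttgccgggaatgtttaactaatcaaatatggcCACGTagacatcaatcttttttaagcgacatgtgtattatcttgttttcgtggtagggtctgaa
PGL1 (chr1:4696024-4696273, minus strand): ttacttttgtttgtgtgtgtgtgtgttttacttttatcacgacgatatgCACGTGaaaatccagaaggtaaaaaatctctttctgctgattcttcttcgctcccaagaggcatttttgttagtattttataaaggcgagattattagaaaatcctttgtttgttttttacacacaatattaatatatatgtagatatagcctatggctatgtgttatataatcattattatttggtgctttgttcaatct
AT1G03290 (chr1:807111-807360, plus strand): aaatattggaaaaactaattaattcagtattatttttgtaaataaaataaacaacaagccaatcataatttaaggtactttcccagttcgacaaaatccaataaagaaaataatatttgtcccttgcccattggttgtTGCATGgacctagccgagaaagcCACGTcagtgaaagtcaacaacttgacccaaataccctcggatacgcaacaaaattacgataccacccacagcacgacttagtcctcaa

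The next 4 have no ACGTG. AT5G55620, COR47 and AT5G40800 hold an RY repeat, and MYB34, with the highest mean of the set, holds none of the 4 motifs in this stretch.
AT5G55620 (chr5:22529757-22530006, plus strand): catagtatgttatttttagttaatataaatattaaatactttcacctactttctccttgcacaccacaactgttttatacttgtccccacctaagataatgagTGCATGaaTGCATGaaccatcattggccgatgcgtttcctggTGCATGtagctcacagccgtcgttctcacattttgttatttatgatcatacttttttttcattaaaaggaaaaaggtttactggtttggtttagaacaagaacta
COR47 (chr1:7086874-7087123, minus strand): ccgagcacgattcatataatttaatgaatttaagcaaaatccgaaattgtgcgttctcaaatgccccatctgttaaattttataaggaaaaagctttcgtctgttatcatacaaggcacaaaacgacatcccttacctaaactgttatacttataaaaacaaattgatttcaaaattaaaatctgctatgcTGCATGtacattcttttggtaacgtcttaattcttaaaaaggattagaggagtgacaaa
AT5G40800 (chr5:16336018-16336267, minus strand): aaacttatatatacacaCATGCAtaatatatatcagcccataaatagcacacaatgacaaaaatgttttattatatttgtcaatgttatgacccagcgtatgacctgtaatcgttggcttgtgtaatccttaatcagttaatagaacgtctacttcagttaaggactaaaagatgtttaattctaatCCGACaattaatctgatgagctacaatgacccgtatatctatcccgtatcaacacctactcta
MYB34 (chr5:24494041-24494290, plus strand): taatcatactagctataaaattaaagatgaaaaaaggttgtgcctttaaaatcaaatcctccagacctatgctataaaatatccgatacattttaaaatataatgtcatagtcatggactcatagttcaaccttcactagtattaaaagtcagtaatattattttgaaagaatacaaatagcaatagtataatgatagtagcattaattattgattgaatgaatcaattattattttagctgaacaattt

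Over the window from 250 bases before to 50 after the gene start, ACGTG on either strand was in 24 of the 52 promoters (46.2%), against 26.7% of all 27444 coding genes of the table. CACGTG was in 9 (17.3% against 7.68%), CATGCA in 7 (13.5% against 9.72%) and CCGAC in 10 (19.2% against 15.0%). In the 250 bases before the start alone, ACGTG was in 42.3% of the set against 22.9% of all coding genes, and CCGAC in 15.4% against 11.97%. Among the 17 genes that passed in the seed coat only, 10 held ACGTG and 5 held CACGTG, and among the 23 that passed in both tissues 9 and 2 did. RY repeats were in 5 of those 23 and in 1 of the 17. The background holds all coding genes, with or without reads here, whereas all 52 genes passed the filter on low counts. No share over the tested genes alone is given, and these shares were not tested. A match is a run of letters, and binding at these places was not measured.

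**Figure D2:**
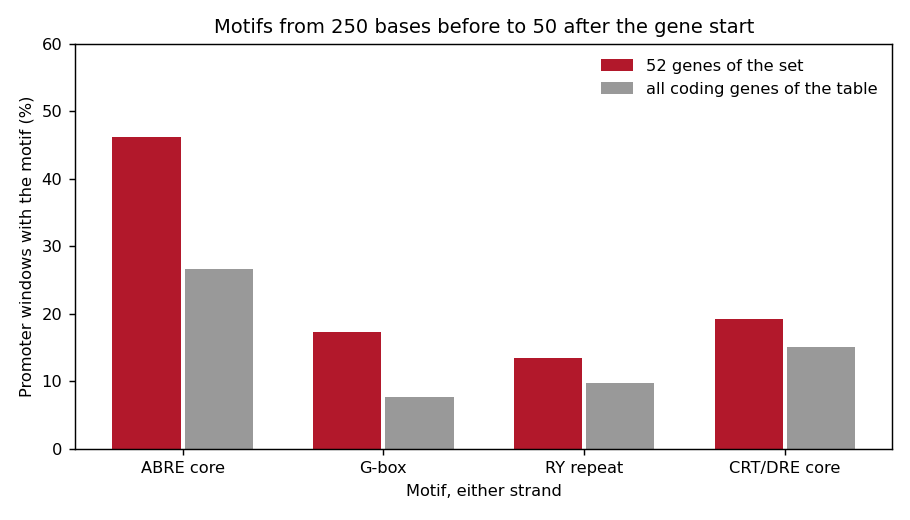
Share of promoter windows (y axis, percent) that hold each motif on either strand, for the 52 genes (red) and all coding genes of the table (grey). The ABRE core is in 46.2% against 26.7% and the G-box in 17.3% against 7.68%, while the RY repeat and the CRT/DRE core lie closer together.

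The tissue in which the genes were on was then compared within the mutant. Of the 52, 23 reached 4 CPM in both mutant tissues, 12 in the embryo only and 17 in the seed coat only. Seed coat here and below names samples that also hold the endosperm, and in which of these a gene was on cannot be told. Tested between mutant seed coat and mutant embryo with edgeR's quasi-likelihood test and Benjamini-Hochberg adjustment over all genes, 26 were higher in the seed coat, 8 were lower and 18 were not called. Those called made up 65.4% of the set, beside 34.9% of all tested genes. The higher genes were 50% and the lower genes 15.4% of the set, beside 16.9% and 18% of all tested genes. The median log2 difference, seed coat over embryo, was 0.73 for the set and -0.01 for all tested genes. The rule asks only that the higher mutant tissue pass its limit, which favours genes that differ between the tissues. The test reads the same mutant libraries that chose the genes, so nothing is read from the share called. With the replicate number as a block, 29 were higher and 8 lower, since AT1G03290, AT4G39110 and TLP18.3 were then called higher in the seed coat (edgeR adjusted p = 0.0163, 0.03 and 0.0232, against 0.138, 0.280 and 0.0747 without the block). The mutant libraries did not overlap between the tissues for 36 of the 52 (69.2%), beside 64.9% of all tested genes. When libraries were scaled to total reads alone, 22 were higher and 10 lower, beside 7.9% and 50.3% of all genes, because that scaling set the median of all genes at -0.43 on the log2 scale, against -0.01 in the test above. For mutant against Col-0 it set the median gene at -0.35 for embryos and -0.30 for seed coats. The CPM levels printed here are on that scale, and the log2 differences of the test are on the TMM scale, in which trimmed means set the library sizes.

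Of the 23 genes on in both tissues, 10 were higher in the seed coat, 2 were lower and 11 were not called. The other 29 genes were sorted to a tissue by these same mutant levels, so their calls restate that choice in part. This limit holds for every adjusted p between the mutant tissues printed below for a gene that passed in 1 tissue only. Of them, 16 were higher, 6 were lower and 7 were not called. In the mutant embryo 10 of the 52 stayed under 1 CPM and in the mutant seed coat 3 did.

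**Figure D3:**
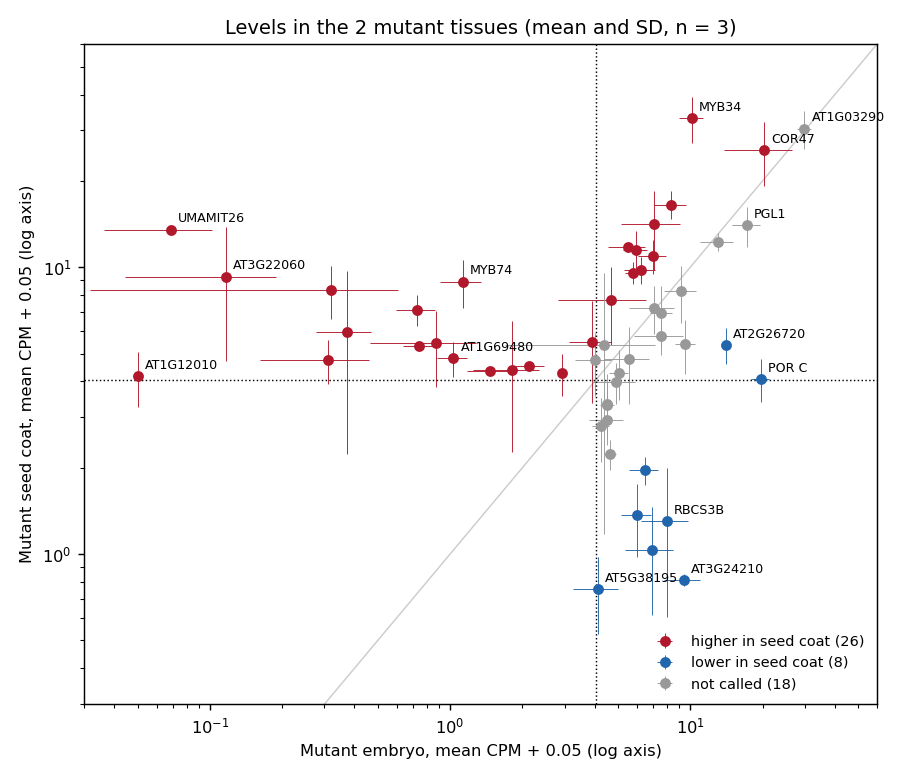
Mean level of each of the 52 genes in mutant embryo (x axis) and mutant seed coat (y axis), as CPM + 0.05 on log axes with bars for SD over 3 libraries, coloured by the call between the mutant tissues. Dotted lines stand at the limit of 4 CPM and the grey line at equal levels. The 26 genes called higher in seed coat (red) spread far to the left, down to 0 CPM in the embryo for AT1G12010, and the 8 called lower (blue) lie below the line.

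Among the 4 transcription factors, MYB34 was the most strongly transcribed. It encodes an R2R3 MYB factor that activates indole glucosinolate synthesis. Its levels were 0, 0 and 0.143 CPM in Col-0 embryos and 11.5, 9.26 and 9.58 CPM in mutant embryos, which is 221 times as much (95% counting interval 60.7 to 1827, on 2 Col-0 reads). The seed coat levels were 0.0669, 0.693 and 0.388 CPM in Col-0 and 32.1, 39.5 and 27.6 CPM in the mutant, an 86.4-fold difference. All 6 mutant libraries lay far above all 6 Col-0 libraries, and the mutant seed coat lay above the mutant embryo by 2.11 ± 0.25 (SE) on the log2 scale (adjusted p = 3.4e-05). Of the other genes of the glucosinolate list, 3 could be tested, and 0 were higher and 1 was lower in the mutant in each tissue, beside 25.4% higher and 21.4% lower over all tested genes in embryos and 24.8% and 23.5% in seed coats, too few genes to set the list apart. The one that fell was the myrosinase TGG1, from 71.2 ± 7.83 to 0.415 ± 0.264 CPM (SD, n = 3) in the embryo (edgeR adjusted p = 9.44e-08).

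MYB74, a related R2R3 factor known from salt and drought responses, passed in the seed coat samples only. It had 0, 0.0699 and 0.143 CPM in Col-0 embryos and 1.19, 1.22 and 0.828 CPM in mutant embryos. Its seed coat values were 0.535, 0.347 and 0.0971 CPM in Col-0 and 7.38, 10.7 and 8.48 CPM in the mutant, with no overlap. Between the mutant tissues it was higher in the seed coat by 3.44 ± 0.30 on the log2 scale (edgeR adjusted p = 2.45e-06). That test reads the mutant seed coat libraries through which MYB74 was chosen.

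The bHLH factor AT1G05805 had the same order, at 0 reads in Col-0 embryos, 0.738, 0.574 and 0.769 CPM in mutant embryos, 0.736, 0.832 and 0.0971 CPM in Col-0 seed coats and 5.04, 5.48 and 5.28 CPM in mutant seed coats. The mutant tissues did not overlap (log2 difference 3.31, edgeR adjusted p = 6.8e-05). BBX29, a B-box zinc finger factor, reached 5.96, 2.51 and 5.38 CPM in mutant embryos and 8.11, 5.12 and 9.73 CPM in mutant seed coats, from Col-0 values of at most 0.768 CPM. Its mutant tissues overlapped, and the call (log2 difference 1.13, adjusted p = 0.0178) was lost without mutant seed coat replicate 1 (adjusted p = 0.0528) or replicate 3 (adjusted p = 0.0908), and with total-read scaling (adjusted p = 0.0654).

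Of the genes tied to ABA, PYL3 encodes a receptor of the hormone. Its level was 0, 0.0699 and 0.0714 CPM in Col-0 embryos and 2.78, 2.87 and 2.96 CPM in mutant embryos, and 0.468, 0.624 and 0.388 CPM in Col-0 seed coats and 4.97, 4.09 and 3.58 CPM in mutant seed coats. The mutant groups lay close together and above all Col-0 libraries, with the seed coat higher by 0.96 ± 0.23 on the log2 scale (edgeR adjusted p = 0.00641). Scaled to total reads alone this difference was 0.55 (adjusted p = 0.0637).

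AT5G40800, uncharacterised in RefSeq, is on the list drawn up for the AITR, SDR4-like and DIG family. It had 0.0665, 0.419 and 0.428 CPM in Col-0 embryos and 9.93, 8.47 and 10.1 CPM in mutant embryos. Seed coat levels were 0.535, 0.139 and 0.194 CPM in Col-0 and 5.26, 4.24 and 6.53 CPM in the mutant. That is 31.1-fold and 18.5-fold, and the mutant tissues were not called different (log2 difference -0.41, adjusted p = 0.282). Of the 5 other tested genes of the family, 4 were higher in the mutant in each tissue, beside 25.4% of all tested genes in embryos and 24.8% in seed coats, and DIG2 was not called. Of these, DIG1 went from 4.94 ± 3.19 to 24.1 ± 0.429 CPM in the embryo and, in seed coats, from 3.46 ± 0.868 to 15.1 ± 0.876 CPM (SD, n = 3, edgeR adjusted p = 6.76e-05 and 0.000177). Only 2 rather than 4 were called in the seed coat with DESeq2, without the low-count filter, with the replicate block or without any 1 of the Col-0 seed coat libraries or of mutant seed coat 1 or 3.

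The LEA and cold group held COR47 and AT1G52680. COR47 is a dehydrin, a hydrophilic protein that protects cells on water loss and in the cold. Its levels were 0, 0.0699 and 0 CPM in Col-0 embryos and 15.4, 27.4 and 17.6 CPM in mutant embryos, which on 1 Col-0 read is 851 times as much (95% counting interval 152 to 33648). In the seed coat they were 0.736, 0.208 and 0.0971 CPM in Col-0 and 22.9, 32.9 and 20.8 CPM in the mutant, a 73.6-fold difference. Both tissues were highest in mutant replicate 2, and no mutant library came near a Col-0 library. The tissue call (log2 difference 0.76, adjusted p = 0.0284) was lost without mutant embryo replicate 1, mutant embryo replicate 3 or mutant seed coat replicate 2, with edgeR adjusted p of 0.0894, 0.0969 and 0.0792, and with total-read scaling (adjusted p = 0.308).

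AT1G52680, described as LEA-related, passed in the seed coat samples only. It had 3.29, 10.2 and 4.27 CPM in mutant seed coats against 0.397, 0.215 and 0.355 CPM in mutant embryos. Col-0 had 0 reads in the embryo and 0.268, 0.555 and 0.485 CPM in the seed coat. Replicate 2 was again the high mutant seed coat library, and the tissues did not overlap (log2 difference 4.51, edgeR adjusted p = 5.52e-05).

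Most of the remaining LEA genes were transcribed in Col-0 already. Of 30 other tested members of the LEA and dehydrin list, 27 were higher and 1 was lower in the mutant embryo, beside 25.4% and 21.4% of all tested genes, with a median log2 change of 1.45 against 0.00 for all genes. In the seed coat 24 were higher and 2 lower, beside 24.8% and 23.5%, with a median of 0.99. LEA7 went from 576 ± 78.7 to 5088 ± 344 CPM in the embryo, and RD29B (LTI65), an ABA-responsive gene of the cold list, from 606 ± 151 to 3436 ± 375 CPM (SD, n = 3, edgeR adjusted p = 1.97e-08 and 1.47e-06). Of the 11 other tested genes of the cold list, 7 in embryos and 5 in seed coats were higher and 0 were lower. CBF1, an activator of cold genes, was not called in either tissue, and neither was CBF4. CBF2 of the same list was higher in the mutant embryo, at 2.78 ± 2.01 against 0.751 ± 0.444 CPM (SD, n = 3, edgeR adjusted p = 0.00614). In the seed coat CBF2 was not called (log2 difference 1.18, edgeR adjusted p = 0.0526). CBF3 was not tested.

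Of the photosynthesis group, POR C and RBCS3B were higher in the mutant embryo, and TAPX and TLP18.3 were not called between the tissues. POR C, a light-dependent enzyme of chlorophyll synthesis, had 0.997, 0.699 and 0.428 CPM in Col-0 embryos and 20.3, 17.6 and 20.8 CPM in mutant embryos, a 27.6-fold difference. Its seed coat levels were 0, 0.347 and 0.194 CPM in Col-0 and 4.16, 3.29 and 4.65 CPM in the mutant. The mutant embryo libraries were all above the mutant seed coat libraries, with a seed coat against embryo log2 difference of -1.86 ± 0.27 (edgeR adjusted p = 0.000174). AT1G03620 overlaps POR C by 121 bases on the other strand.

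RBCS3B encodes a small subunit of Rubisco, the enzyme that fixes carbon dioxide. It had 0.731, 0.908 and 0.786 CPM in Col-0 embryos, 9.88, 7.47 and 6.44 CPM in mutant embryos, 0.268, 0.0693 and 0 CPM in Col-0 seed coats and 0.949, 2.05 and 0.754 CPM in mutant seed coats. The mutant embryo stood apart from all other groups (log2 difference between mutant tissues -2.28, edgeR adjusted p = 0.000289). Its closest copies share 90.8% (RBCS1B, over 1020 bases) and 87.7% (RBCS2B) of the aligned bases, so reads on RBCS3B are uncertain where these genes are alike, but both copies stayed under 0.2 CPM on average in every group. RBCS1A, the most abundant Rubisco small subunit gene here by reads, fell in the mutant embryo from 24.9 ± 1.68 to 12.2 ± 1.90 CPM (SD, n = 3, edgeR adjusted p = 0.001) and was higher in the mutant seed coat, at 3.26 ± 0.112 against 2.67 ± 0.474 CPM (edgeR adjusted p = 0.0118).

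TAPX, a thylakoid ascorbate peroxidase that removes hydrogen peroxide, had 4.54, 4.95 and 5.50 CPM in mutant embryos and 4.02, 5.19 and 3.52 CPM in mutant seed coats, from at most 0.428 CPM in any Col-0 library. TLP18.3, a thylakoid lumen protein of photosystem II upkeep, had 4.71, 3.37 and 3.78 CPM in mutant embryos and 4.16, 3.87 and 6.03 CPM in mutant seed coats, from at most 0.930 CPM. The mutant tissues overlapped for both genes and neither was called different (adjusted p = 0.719 and 0.0747). Of 13 other tested genes of the nuclear photosynthesis list, 8 were higher and 3 lower in the mutant embryo, and 9 were higher and 0 lower in the mutant seed coat. Over all tested genes 25.4% were higher and 21.4% lower in embryos, and 24.8% and 23.5% in seed coats, so the 3 lower genes are near the background. Rubisco activase (RCA) went from 10.3 ± 2.33 to 148 ± 3.97 CPM in the embryo and, in seed coats, from 3.52 ± 0.305 to 133 ± 8.07 CPM, whereas the light-harvesting gene CAB1 fell in the embryo from 0.785 ± 0.0537 to 0.0962 ± 0.0873 CPM (SD, n = 3, edgeR adjusted p = 1.71e-09, 1.34e-09 and 0.00543).

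Transporters covered amino acids, boron, phosphate, citrate and magnesium. UMAMIT26, of a family of amino acid exporters, passed in the seed coat samples only. It had 0.334, 0.347 and 0.582 CPM in Col-0 seed coats and 13.9, 13.3 and 13.2 CPM in mutant seed coats, a 32.0-fold difference. In the embryo both genotypes were at background, with 2 reads in Col-0 and 1 read in the mutant over 3 libraries each, so no fold is given there. Within the mutant the seed coat level was 652 times the embryo level (95% counting interval 117 to 25815) (edgeR adjusted p = 4.56e-09). Its neighbour and closest copy, UMAMIT27, was under 0.1 CPM on average in all 4 groups.

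BOR4, a borate exporter, was on in both tissues at 5.22, 9.12 and 6.80 CPM in mutant embryos and 12.8, 18.9 and 10.6 CPM in mutant seed coats, from at most 0.194 CPM in Col-0. The seed coat was higher without overlap (log2 difference 1.41, edgeR adjusted p = 0.000699). AT4G13800, described as a NIPA magnesium transporter, had 8.23, 10.7 and 8.40 CPM in mutant embryos and 7.52, 10.3 and 6.78 CPM in mutant seed coats, from 3 Col-0 reads in embryos and 1 in seed coats. Its mutant tissues overlapped and were not called different.

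AT1G69480, of the EXS family of phosphate exporters, is the gene with 0 reads in all Col-0 libraries. It had 0.908, 1.15 and 0.887 CPM in mutant embryos and 4.09, 4.75 and 5.46 CPM in mutant seed coats. Against a floor of 3 reads per library these levels are at least 4.73-fold and at least 21.0-fold higher than in Col-0. The mutant tissues did not overlap (log2 difference 2.7, edgeR adjusted p = 9.16e-05). Its promoter, printed above, holds 4 ACGTG matches, of which a pair of CACGTG palindromes accounts for all.

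FRD3, a citrate exporter needed for iron transport from the root, and the amino acid transporter AT5G65990 reached 4 CPM in the embryo only, yet neither differed between the mutant tissues beyond their spread (adjusted p = 0.756 and 0.960). The mitochondrial carrier AT5G26200 passed in the seed coat samples only. It had 5.33, 3.80 and 7.03 CPM in mutant seed coats and 0.795, 0.431 and 1.24 CPM in mutant embryos. AT2G20670, named a putative sugar phosphate exchanger, had 8.69 to 10.4 CPM in mutant seed coats and 5.39 to 6.17 CPM in mutant embryos, and was higher in the seed coat (log2 difference 1.15, edgeR adjusted p = 0.00267).

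Receptors and kinases mostly passed in the seed coat samples only. RLP28, a receptor-like protein, had 7.74, 10.2 and 6.91 CPM in mutant seed coats against 0.201, 0.208 and 1.07 CPM in Col-0 seed coats and 0, 0.574 and 0.236 CPM in mutant embryos. AT3G22060, of a receptor-kinase-related family, had 6.06, 14.5 and 7.16 CPM in mutant seed coats, 0.803, 0.0693 and 0.194 CPM in Col-0 seed coats and 3 reads over the mutant embryo libraries, so that the mutant tissues differed 147-fold (counting interval 50.1 to 718). Both were called higher in the seed coat (edgeR adjusted p = 7.66e-05 and 1.84e-05), and their embryo libraries overlapped between the genotypes. AT4G39110, a malectin-domain receptor kinase, depended on 1 seed lot: it had 2.78, 7.47 and 2.78 CPM in mutant embryos and 3.36, 10.1 and 2.45 CPM in mutant seed coats. Only replicate 2 exceeded 4 CPM in either tissue, and without it both mutant means would be under the limit.

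Small-molecule enzymes rounded out the set. SDT, which attaches sinapic acid to spermidine, had 7.89, 9.69 and 7.21 CPM in mutant embryos and 18.6, 15.9 and 15.1 CPM in mutant seed coats, from 0.901 CPM or less in Col-0, and was higher in the seed coat without overlap (log2 difference 1.42, edgeR adjusted p = 0.000415). AT1G12010, a 2-oxoglutarate and iron-dependent oxygenase, had 0 reads in all 6 embryo libraries. Its seed coat levels were 1.34, 0.901 and 0.388 CPM in Col-0 and 3.21, 5.04 and 4.08 CPM in the mutant, and its mutant seed coat level was at least 22.1-fold higher than the embryo floor of 3 reads per library. PGL1, an enzyme of the oxidative pentose phosphate pathway, was even between the tissues at 15.5, 16.3 and 19.7 CPM in mutant embryos and 14.8, 15.6 and 11.4 CPM in mutant seed coats, against at most 0.571 CPM in Col-0 (49.1-fold and 51.6-fold).

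Glycosyl hydrolases were both higher in the mutant seed coat than in the mutant embryo. BGLU16, a beta-glucosidase, had 11.5, 11.9 and 9.23 CPM there against 5.96, 7.04 and 7.80 CPM, and the family 17 enzyme AT5G18220 had 6.06, 7.75 and 7.35 CPM against 0.795, 0.718 and 0.532 CPM (edgeR adjusted p = 0.00142 and 2.59e-06). The lipid proteins went the other way or were level. The lipid-transfer-type AT5G38195 had 3.06, 4.74 and 4.43 CPM in mutant embryos, at least 19.7-fold above a Col-0 embryo with 0 reads, and 0.657, 0.950 and 0.502 CPM in mutant seed coats. AT5G38197 is 88.2% identical to it over 348 bases, so its reads are uncertain there. The GDSL lipase AT1G75900 had 6.02, 7.40 and 5.79 CPM in mutant embryos and 2.12, 1.68 and 1.95 CPM in mutant seed coats. Both were lower in the seed coat (edgeR adjusted p = 0.00111 and 0.0016).

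Of the genes with other or no described function, AT1G03290, a coiled-coil protein of the ELKS family, was the most abundant in the mutant embryo. It had 0.465, 0 and 0.143 CPM in Col-0 embryos and 29.1, 32.2 and 28.1 CPM in mutant embryos, and 0.602, 1.18 and 0.388 CPM in Col-0 seed coats and 28.7, 35.5 and 26.8 CPM in mutant seed coats. The 6 mutant libraries overlapped between tissues (edgeR adjusted p = 0.138, and 0.0163 with the block) and lay 147-fold and 42.0-fold above Col-0 on average. AT5G55620, whose promoter holds 3 RY repeats, was similarly level at 11.8 to 15.4 CPM in mutant embryos and 11.5 to 13.2 CPM in mutant seed coats.

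The strongest embryo bias of the set belonged to AT3G24210, an ankyrin repeat protein, at 10.6, 9.91 and 7.51 CPM in mutant embryos and 0.730, 0.804 and 0.754 CPM in mutant seed coats (log2 difference -3.19 ± 0.26, edgeR adjusted p = 1.56e-06). AT3G15250 and AT5G54020 were lower in the seed coat too, by log2 differences of -2.38 and -1.77, as was the cupredoxin AT2G26720 at -0.99. Remorin AT2G41870, a plasma membrane protein with 4 ACGTG matches before its start, had 5.16, 6.03 and 6.50 CPM in mutant embryos and 10.4, 13.6 and 10.4 CPM in mutant seed coats and was higher in the seed coat (log2 difference 1.36, edgeR adjusted p = 5.93e-05). AT3G55890, of the Yippee family, was close to absent in the mutant embryo at 0.170 to 0.431 CPM and at 4.02 to 5.63 CPM in the mutant seed coat.

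The place of the genes on the chromosomes was then read with their nearest coding neighbours. A neighbour that itself met the rule belongs to the set and was left out of the neighbour counts, so the rule also sorted the neighbours by level. Chromosomes 1 to 5 carried 18, 6, 10, 5 and 13 of the 52. Median exon length was 1409.5 bases against 1818.5 for tested coding genes, and 14 genes (26.9% against 14.1%) had a lone exon. The nearest coding gene on each side gave 102 neighbours outside the set, of which 58 had enough reads to be tested. In the mutant embryo 27 of them (46.6%) were higher and 11 lower, beside 25.4% and 21.4% of all tested genes, and in the mutant seed coat 22 (37.9%) were higher and 12 lower, beside 24.8% and 23.5%. Without neighbours whose span overlaps a gene of the set, 23 of 49 (46.9%) were higher in the embryo and 19 of 49 (38.8%) in the seed coat. These 49 split into 30 on the same strand, 12 of them higher in the embryo, and 19 on the opposite strand, 11 of them higher. Scaled to total reads alone, 17 neighbours were higher and 22 lower in the embryo, beside 14.1% and 42.3% of all genes, and 15 higher and 17 lower in the seed coat, beside 14.9% and 38.1%.

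Several of these neighbours are themselves LEA genes. COR47 starts 1029 bases downstream of ERD10, another dehydrin on the same strand. ERD10 missed the rule only through its Col-0 seed coat mean of 1.095 CPM, just over the limit of 1 CPM. ERD10 had 0 reads in Col-0 embryos and 328, 417 and 369 CPM in mutant embryos, at least 1789-fold higher against 3 reads per library, and went from 1.54, 0.971 and 0.777 CPM in Col-0 seed coats to 620, 739 and 546 CPM in mutant seed coats. Both genes of the pair were near 0 in all Col-0 libraries and were highest in mutant replicate 2 in either tissue (edgeR adjusted p for ERD10 of 9.98e-10 and 1.34e-09). AT1G52680 lies 697 bases from LEA7 on the other strand, whose levels are given above.

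IMPL2, a phosphatase of histidine synthesis, and AT4G39110 are the only members next to each other, 58 bases apart on the same strand. Just 129 bases upstream of IMPL2, again on the same strand, lies the dehydrin AT4G39130, which went from 11.7 ± 2.67 to 102 ± 7.70 CPM in the embryo and, in seed coats, from 6.61 ± 1.77 to 81.7 ± 5.45 CPM (SD, n = 3, edgeR adjusted p = 1.83e-07 and 9.03e-08). IMPL2 itself had 0.797, 0.908 and 0.786 CPM in Col-0 embryos and 5.28, 6.75 and 4.43 CPM in mutant embryos. It had 0.134, 0.624 and 0.388 CPM in Col-0 seed coats and 4.16, 6.36 and 3.64 CPM in mutant seed coats. All 3 genes of the row were thus higher in every mutant library than in any Col-0 library of the tissue. Whether reads run on from 1 gene of a row into the next was not tested.

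Other neighbours with large differences were PS2, which lies 559 bases from PYL3 on the other strand, and NCED6, 5267 bases from AT3G24210. NCED6, an enzyme of ABA synthesis, is also among the endosperm markers given above. PS2 went from 1.37 ± 0.441 to 28.6 ± 10.97 CPM in the embryo and, in seed coats, from 4.72 ± 1.35 to 26.2 ± 4.87 CPM. NCED6 went from 0.927 ± 0.403 to 21.4 ± 4.64 CPM in the embryo and, in seed coats, from 2.01 ± 0.869 to 9.78 ± 2.29 CPM (SD, n = 3). NSP2, a nitrile-specifier gene 833 bases from RLP28, was higher in the mutant embryo (36.7 ± 10.5 to 1186 ± 83.9 CPM, edgeR adjusted p = 2.42e-08) but not in the seed coat (10892 ± 1632 against 8811 ± 896 CPM, adjusted p = 0.947), the tissue in which RLP28 was on. MYB34 had no transcribed neighbour: both genes beside it had 0 reads in all libraries.

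**Figure D4:**
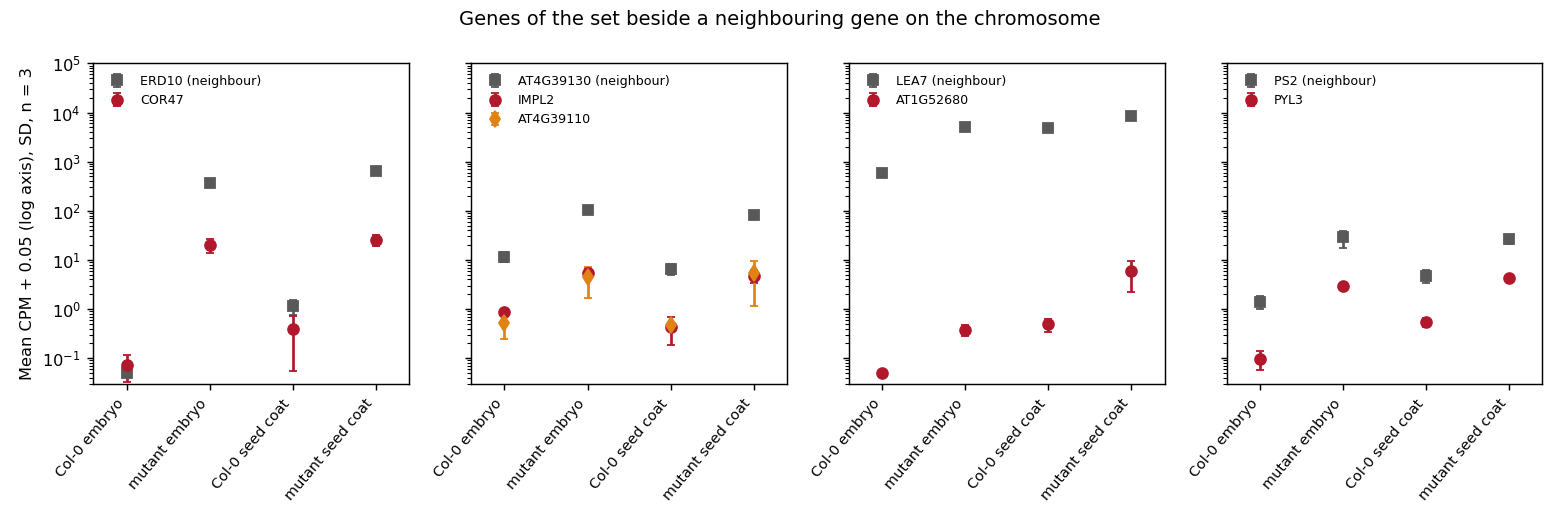
Mean level with SD (n = 3) in the 4 groups, as CPM + 0.05 on a log axis, for 5 genes of the set (coloured) and the neighbouring gene on the chromosome (grey squares). ERD10 and COR47 are near 0 in both Col-0 groups, AT4G39130 lies above IMPL2 and AT4G39110 in every group, LEA7 is high in Col-0 seed coat where AT1G52680 is not, and PS2 lies above PYL3 in every group.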

How the data were processed

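Messenger RNA was selected by poly(A), made into stranded libraries with molecular-identifier adaptors and sequenced, per the labels' protocols. The authors deposited whole-number counts of reads per gene, as a combined table and as 1 file per library, and per the submitters' processing notes the tools were bcl2fastq 2.19, fastp 0.12.4 and STAR 2.7.9a with the TAIR10 genome. The sources used here do not say whether reads were deduplicated by the identifiers. The combined table equals the reverse-strand column of the library files in all 12, and its 4 summary entries were removed.

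CPM is the count over the sum of gene counts in a library, times 1000000. Counts were tested with edgeR 4.0.16 in R 4.3.3: filterByExpr with a minimum count of 10, TMM scaling, quasi-likelihood F tests on the means of the 4 groups over all 12 libraries, and a Benjamini-Hochberg adjusted p under 0.05. Alternatives were RLE factors, total reads, no filter, DESeq2 1.42.0, the mutant libraries alone, unstranded counts, a block for the seed lot, other limits for choosing genes and leaving out each library. The procedure was tested on simulated data. A group at 0 reads was set to 3 reads per library, and counting intervals (95%, exact) cover counting error only, since deduplication is not stated.

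The genes, gene lists and tests were chosen with earlier results of these data known. Those named are the 12 highest in each mutant tissue, members of the lists, up to 4 per functional group, the 5 largest tissue differences each way, those next to the limits and those next to each other. Functional groups come from words in RefSeq descriptions, and these word rules were corrected after the data were seen. Names, positions, neighbours and promoters come from RefSeq on TAIR10.1, since the deposited files hold no coordinates. Of 10 gene lists, the 5 that held a gene of the set are described.

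Libraries with the same number were compared by correlating their deviations from the group means. Within a genotype, the tissues with replicate numbers 1, 2 and 3 gave 0.401, 0.456 and 0.274 for Col-0 and 0.403, 0.507 and 0.162 for the mutant. All exceeded 0.1. Unlike numbers gave -0.318 to -0.0516 in Col-0, so there the numbers pair the tissues. In the mutant, embryo 3 with seed coat 1 gave 0.225 and embryo 1 with seed coat 3 gave 0.117. The values thus pair mutant replicate 2 clearly and do not settle the pairing of mutant replicates 1 and 3. The tissue test reported has no block, and the fit with the block is given beside it. Between the genotypes, same-numbered libraries correlated at -0.467 to -0.0358, so there they share a number alone. The per-gene chi-square between replicates of a group was 6.70 to 32.6, so no library was a copy of another.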

Additional observations from a re-analysis of the deposited data

Results flagged for a closer look

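The library files also count reads on the strand opposite to each gene, which entered none of the comparisons above except the alternative with unstranded counts. Over all genes 3.63% to 5.60% of strand-assigned reads lay there, and the median for the 52 genes was 0.888%. A pair of genes had opposite-strand reads that were above those of Col-0 in every mutant library of a tissue and averaged at least 1 CPM. For AT2G42350, a RING protein, they averaged 6.90 CPM in mutant embryos (4.99, 8.90 and 6.80) against 1.11 CPM in Col-0, and 7.76 CPM in mutant seed coats (4.38, 12.4 and 6.47) against 1.07 CPM in Col-0. No annotated coding gene overlaps it on that side, and its nearest coding gene is 245 bases away. For POR C they averaged 4.19 CPM in mutant seed coats (4.31, 4.68 and 3.58) against 1.77 CPM in Col-0, where AT1G03620 on the other strand overlaps it by 121 bases. The source of these reads was not tested.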

How the results depend on the processing

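How many genes qualify depended on every limit. A Col-0 limit of 0.5 CPM left 30 genes (17 through the embryo and 26 through the seed coat). A mutant limit of 2 CPM gave 183 (124 and 108), and 8 CPM gave 21 (11 and 17). With TMM-scaled CPM 83 qualified, 50 of them shared with the 52, and 69 of the 83 did so through the seed coat. With every library held to the limits 33 did, 23 through the seed coat. With unstranded counts 58 qualified, 45 of them shared with the 52. POR C, at 2.66 CPM in Col-0 embryos, was then outside. So was TLP18.3, at 2.96 CPM in mutant embryos and 3.52 CPM in mutant seed coats. Leaving out a replicate number gave 50 to 67 genes, 36 to 48 through the embryo and 36 to 47 through the seed coat.

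Between the mutant tissues, leaving out 1 library gave 24 to 26 higher and 8 to 8 lower genes. Of the 34 calls, 30 held under total-read scaling and 4 (COR47, BBX29, AT3G15770 and PYL3) did not; the cause was not tested. AT3G15770 (edgeR adjusted p = 0.0303) was also lost without mutant embryo 1 or 3 or mutant seed coat 2 or 3. Alternatives for neighbours and for the other genes of the lists were chosen after seeing the data. No tissue call changed direction under any alternative run. Over all genes, total-read scaling called 9450 between the mutant tissues in place of 5670. Leaving out 1 library, calls over all genes ranged from 6320 to 7916 in the embryo, 6827 to 7977 in the seed coat and 4483 to 5812 between tissues.

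With the replicate block for the seed lot, 29 genes of the set were higher and 8 lower in the mutant seed coat, beside 7416 calls over all genes. The block gave 7483 calls in embryos and 7747 in seed coats between genotypes, where the pairing has no basis.

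A level of 1 CPM is about 10 to 18 reads here, so differences among Col-0 libraries below it rest on a few reads.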

Other observations

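Among genes of the set with a mean of at least 1 CPM of opposite-strand reads in a group, 3 had mutant libraries that all lay below Col-0 in a tissue. AT1G03290 had 10.2, 6.36 and 7.14 CPM on the opposite strand in Col-0 embryos and 1.36, 3.66 and 2.13 CPM in mutant embryos, while its own strand went from 0.203 to 29.8 CPM on average. Its seed coat values on the opposite strand were 2.07, 2.36 and 2.91 CPM in Col-0 and 1.31, 1.24 and 1.07 CPM in the mutant. The mutant libraries lay below all Col-0 libraries in both tissues. ATDUF1 on the other strand overlaps it by 2184 bases and averaged 7.87 CPM in Col-0 embryos and 2.28 CPM in mutant embryos (edgeR adjusted p = 0.00102). AT5G26200, which overlaps AL4 on the other strand, had 4.78 to 5.24 CPM there in Col-0 embryos and 1.87 to 3.37 CPM in mutant embryos. AT5G18220 averaged 1.51 CPM on the opposite strand in Col-0 seed coats and 0.550 CPM in mutant seed coats. These genes were singled out after their values were seen, and their opposite-strand reads were not tested.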
